A study of Mus musculus and Homo sapiens with 60 samples.

Results

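The 2618 regions described here carried a Myc peak in every one of the 7 Myc chromatin immunoprecipitation sequencing (ChIP-seq) lists of the Eµ-myc mouse: 1 list from wild-type spleen, 3 from transgenic spleen and 3 from tumours. They were obtained by merging the 7 lists wherever peaks overlapped or touched, which gave 48649 regions, and by keeping those with a peak in all 7. The regions were thus selected on the Myc peaks of these 7 lists, so Myc lengths and score ranks are given as a description without a test. The other 46031 merged regions, with a peak in 1 to 6 of the lists, serve as the set they are compared with. Each list holds the peaks of 1 library on the mm9 build, and positions are counted from 1.

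The Eµ-myc animals carry Myc under an immunoglobulin heavy-chain enhancer, active in B cells, and develop B-cell lymphoma. Wild-type and transgenic spleen B cells were taken from C57BL/6 mice of 6 to 8 weeks and enriched on B220 beads. Tumour cells came from lymph nodes of transgenic C57BL/6 mice and were not purified further, so they may hold other cells of the node. RNA polymerase II (RNAPII), H3K4me3, H3K4me1 and H3K27ac were mapped in the same 3 stages. RNAPII and H3K27ac had 1 wild-type spleen, 1 transgenic spleen and 3 tumour libraries, and H3K4me3 and H3K4me1 had 2, 2 and 3. The fibroblasts were the 3T9 line, made from mouse embryonic fibroblasts of mixed strain that carry the c-mycflox/flox genotype in all conditions used here. In the serum series the cells were kept for 48 h in 0% FBS (0 h) and then given 10% FBS for 1 or 2 h. In the MycER series the same genotype was infected with MycER, a Myc protein fused to the hormone-binding domain of the oestrogen receptor, and treated with ethanol (0 h) or with 400 nM 4-hydroxytamoxifen (OHT) for 4 h. Each fibroblast condition had 1 Myc library.

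Myc is a transcription factor that binds DNA as a dimer with Max, with a preference for E-box sequences. In most cells it is found at promoters that already carry active chromatin, and with more Myc it also reaches further promoters and enhancers. H3K4me3 marks active promoters, H3K4me1 marks enhancers and the flanks of promoters, H3K27ac marks active promoters and enhancers, and RNAPII marks sites of transcription or pausing.

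The Myc lists held 5246 to 34142 peaks, and the lists do not give read depth, so a missing peak need not be missing binding. Wild-type spleen library 1 and transgenic spleen library 1 stood apart before any comparison: the median width of their peaks was 233 and 261 bp, close to the 250 bp average of the sonicated fragments, against 1386 to 1476 bp in the other 5 lists. Length comparisons with transgenic spleen are therefore also given against its libraries 2 and 3. The labels do not say whether the libraries of a group are from different animals, so the p-values reflect the spread among these libraries alone.

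Regions in all 7 lists were 5.38% of all merged regions and were wider than those found in fewer. The median merged width was 1036 bp for the 22828 regions of 1 list, 2080 bp for the 4006 regions of 4 lists, 2608 bp for the 2485 regions of 6 lists and 2993.5 bp for the 2618 regions of all 7. The last ranged from 780 to 27499 bp and summed to 9.09 Mb. Just outside the rule, the 2485 regions in 6 lists most often lacked a peak in transgenic spleen library 2 (1247 regions), which had the fewest peaks, or in wild-type spleen library 1 (1073 regions). A further 93 lacked it in transgenic spleen library 1, 13 in transgenic spleen library 3, and 3, 4 and 52 in tumours 1, 2 and 3. In the wild-type list the regions of all 7 stood at a median score percentile of 68.8, against 50.3 for regions of 6 lists with a peak there. The percentile is the rank of a score, counted from the lowest, as a share of the peaks of the list, with tied scores at their middle rank.

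Myc covered more of these regions in tumours than in spleen. The median length covered per region was 341 bp in the wild-type spleen library, 517, 1590 and 1882 bp in the transgenic spleen libraries and 2634, 2477.5 and 2439 bp in the tumours. All 3 tumour values lay above all 4 spleen values, and the 2 libraries with narrow peaks gave the lowest. The tumours averaged 2517 ± 103 bp and transgenic spleen 1330 ± 719 bp (SD, n = 3 each), a ratio of geometric means of 2.17. Against transgenic spleen libraries 2 and 3 alone the ratio was 1.45, so that much of the larger ratio came with the narrow-peak library. The median width over the whole lists did not differ in that way, with a ratio of 0.975 of tumours to transgenic spleen libraries 2 and 3. Relative to its own list, the longest peak of a region was 1.71, 1.72 and 1.70 times the list median in the tumours, 1.58, 1.07 and 1.26 times in the transgenic libraries and 1.28 times in the wild-type one. The tumour lists held 27347 to 34142 peaks, against 5246 and 12985 in transgenic spleen libraries 2 and 3. List medians therefore cover unlike sets of peaks, and do not show whether the widening was particular to these regions.

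**Figure D1:**
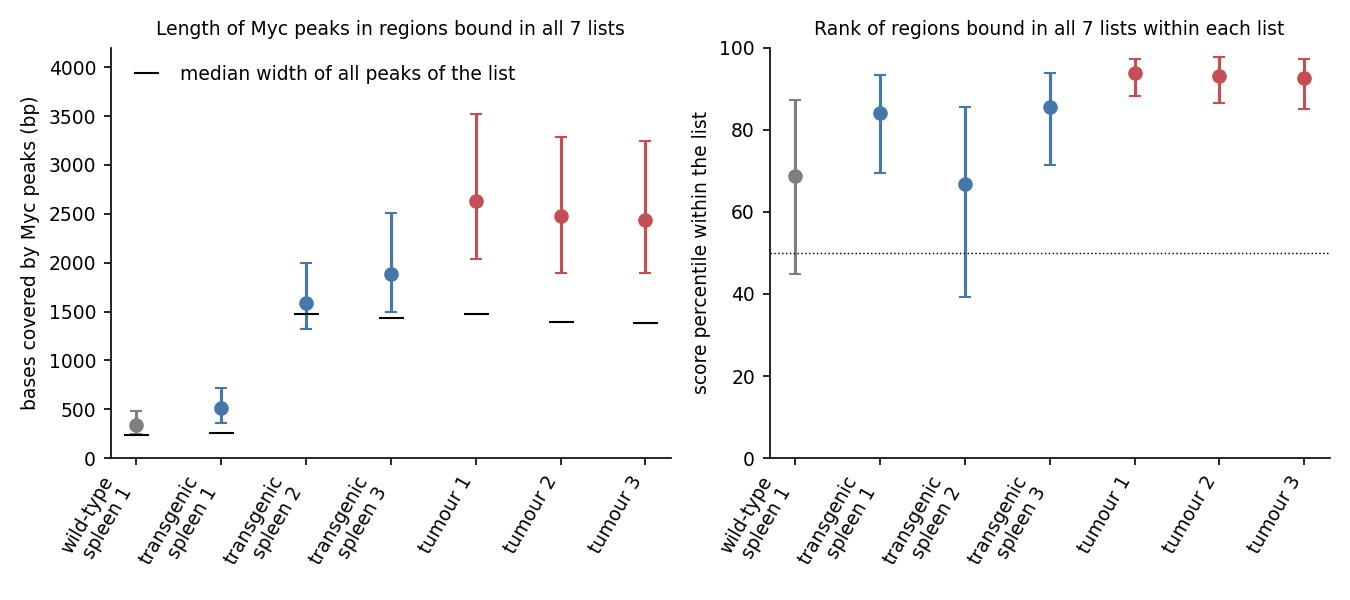
Left, bases covered by Myc peaks per region (bp); right, score percentile of the region within its list (%). Dots are medians over the 2618 regions for each library, bars run from the lower to the upper quartile, and black dashes mark the median width of all peaks of the list. The tumour medians of 2439 to 2634 bp lie above every spleen median, and the tumour percentiles of 92.7 to 93.9 above every spleen percentile.

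The same held region by region. In 1624 of the 2618 regions (62.0%) the covered length in all 3 tumours exceeded that in all 3 transgenic spleen libraries, and in none was it below all 3. Over the 3691 regions bound in these 6 lists, with or without wild-type spleen, the shares were 58.1% and 0.00%. With the narrow peaks of transgenic spleen library 1, a length below all 3 could hardly occur. Against transgenic spleen libraries 2 and 3 alone, the same 1624 regions were longer in all 3 tumours, and 58.1% of the 3691 were. On that comparison 38 regions (1.45%) were shorter in all 3 tumours, and 1.92% of the 3691 were. The 1073 regions bound in the same 6 lists but not in wild-type spleen had 521 regions (48.6%) that were longer in all 3 tumours. The ratio of the median tumour length to the median of transgenic spleen libraries 2 and 3 was 1.37 at the median region, with quartiles of 1.16 and 1.68. It was above 1 in 2425 regions (92.6%, against 91.1% of the 3691) and above 2 in 318 (12.1%, against 11.8%), both near the share of the 3691. For the 1073 regions outside wild-type spleen the median ratio was 1.32, with 87.4% above 1 and 11.0% above 2. Single pairs of a tumour and transgenic spleen library 2 or 3 had 79.7% to 93.0% of the regions longer in the tumour.

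Sorted into quintiles by their length in transgenic spleen libraries 2 and 3, the shortest quintile had a median of 1804 bp in tumours and 1246 bp in those spleen libraries. The longest quintile had 4196 bp in tumours and 2901 bp in those spleen libraries. Since the sorting used the spleen lengths, these medians do not show whether short and long regions widened alike.

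The added length lay on both sides of the site that wild-type spleen already had. The wild-type peak was wholly inside the Myc peaks of tumours 1, 2 and 3 in 99.8%, 99.7% and 99.6% of the regions. The corresponding shares were 93.2% and 97.5% for transgenic spleen libraries 2 and 3, and 50.3% for the narrow-peak transgenic library 1. At 1000 bp below the midpoint of the wild-type peak, 65.1%, 60.2% and 59.9% of the regions were covered in the tumours, 3.06%, 26.2% and 38.0% in the transgenic libraries and 0.917% in the wild-type one. At 2000 bp below it the tumours covered 21.9%, 19.7% and 18.3%, and transgenic spleen 0.840%, 4.97% and 9.24%. The shares above the midpoint were close to these, with 65.7%, 62.2% and 60.3% in the tumours at 1000 bp. The median tumour reached beyond transgenic spleen libraries 2 and 3 on both sides in 1804 regions (68.9%) and on neither in 99 (3.78%). These shares were not taken over all 3691 regions bound in the transgenic spleen and tumour lists. Whether such reach was particular to the regions described here was therefore not tested.

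**Figure D2:**
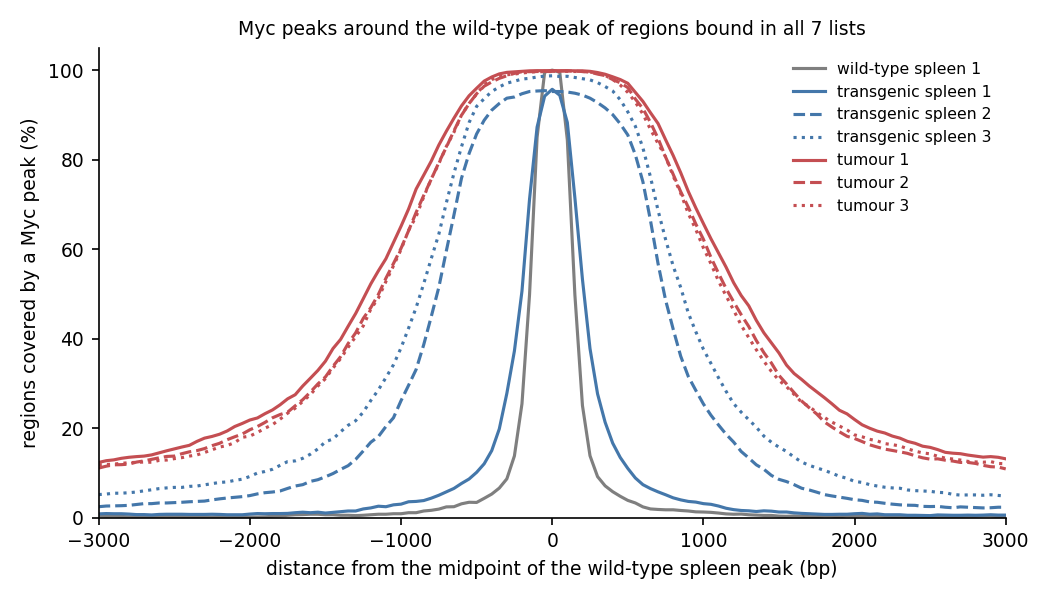
Share of the 2618 regions covered by a Myc peak (%, vertical) against the distance from the midpoint of the wild-type spleen peak (bp, horizontal), one line per library. The tumour lines run together and stay above the transgenic spleen lines on both sides, with 59.9% to 65.7% of regions still covered at 1000 bp.

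The bases that only tumours covered were already marked in wild-type spleen. Bases with Myc in at least 2 tumours and in no spleen library summed to 1909 kb, or 729 bp per region, and those with Myc both in spleen and in at least 2 tumours to 5747 kb. Of the tumour-only bases, 94.8% lay under H3K4me1 of wild-type spleen, 84.5% under H3K27ac and 70.2% under H3K4me3, and 97.5% lay under at least 1 of the 4 antibodies. For bases with Myc in spleen and in fewer than 2 tumours these shares were 92.1%, 81.5%, 72.2% and 95.3%. Such marking was therefore not particular to the tumour-only bases. RNAPII differed most between the stages at the tumour-only bases: it covered 12.4% of them in the wild-type library, 9.08% in the transgenic one and 56.4% in tumours. On the bases shared by spleen and tumours it covered 49.4%, 41.2% and 89.5%. On the 248.5 kb with Myc in spleen and in fewer than 2 tumours it covered 6.06%, 3.02% and 39.0%, so the higher RNAPII coverage in tumours was not particular to the tumour-only bases. The tumour figures merge 3 RNAPII lists and the spleen figures are 1 list each. Peaks of tumours 2 and 3 were wide, with list medians of 1432 and 1545 bp, against 581 bp in tumour 1, 524 bp in the transgenic spleen list and 894 bp in the wild-type one, and the part of these differences in the RNAPII coverage was not tested.

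Within each list the regions ranked high, and highest in the tumours. Their median score percentile was 68.8 in the wild-type library, 84.1, 66.7 and 85.5 in the transgenic libraries and 93.9, 93.1 and 92.7 in the tumours. The score is the authors' value for each peak and was used only to rank peaks within 1 list. Percentiles from lists of different length show no change of binding, since the tumour lists were longer than the spleen lists and held more low-scoring peaks elsewhere. Of the tenth of peaks with the highest scores, the regions held 77.4% in the wild-type library, 74.5%, 90.9% and 77.0% in the transgenic libraries and 62.2%, 61.4% and 47.3% in the tumours. Of the lower-scoring peaks, those at or below the list's median, they held 38.1% in the wild-type library, 16.8%, 37.0% and 5.36% in the transgenic libraries and 1.13%, 1.65% and 1.31% in the tumours.

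The order of the regions was only partly shared between libraries. Across the 2618 regions, Spearman's rho of the scores was 0.65 to 0.73 between tumours, 0.42 to 0.63 between a tumour and a transgenic spleen library and 0.36 to 0.41 between a tumour and wild-type spleen. Among spleen libraries the order went with peak width more than with genotype: rho was 0.74 between the narrow-peak libraries wild-type 1 and transgenic 1 and 0.78 between transgenic 2 and 3, but 0.35 and 0.33 between transgenic 1 and transgenic 2 and 3. These values describe regions that were required to be bound in every list, and 2 libraries of 1 stage share their tissue. All 7 lists had the region above their median in 1255 cases, and above their 90th percentile in 184. The tumour scores also met a ceiling: 1294, 1036 and 676 peaks of tumours 1, 2 and 3 carried the same score of 3100, and 1109, 901 and 524 of the regions had a peak at or above it. The highest regions therefore share percentiles of 97.4, 97.7 and 98.8 in the tumours and were ordered by the spleen lists.

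By mean percentile over the 7 lists, the highest region was chr17:39979309-39986287, at 99.1 ± 1.15 (SD over 7 lists, as for the other means here). Its chromatin marks and its length in wild-type spleen differed from those of the rest of the highest 10. Myc covered 5709 bp of it in the wild-type library, 5763, 6979 and 6741 bp in the transgenic libraries and 6420, 6123 and 6350 bp in the tumours, so that it was already long in the 2 narrow-peak libraries, where the other 9 had 502 to 1352 bp. The ratio of tumours to transgenic spleen libraries 2 and 3 was 0.926, and among the other 9 chr3:137805727-137808437 had a lower one, 0.820. The region chr17:39979309-39986287 had no H3K4me1 and no H3K27ac peak in any of the 12 lists of these marks. It had H3K4me3 in 1 of 2 wild-type spleen, 1 of 2 transgenic spleen and 3 of 3 tumour lists, and RNAPII in 1 tumour only. In fibroblasts at 0 h it had none of the 4, although Myc was called there in all 5 fibroblast lists. Its sequence and read mapping were not examined, so whether its peaks reflect Myc binding was not tested. The other 9 were chr4:133465586-133467628, chr3:137805727-137808437, chr1:88252952-88258044, chr14:20900195-20903418, chr6:86472199-86478896, chr11:6418617-6429826, chr10:121061562-121065004, chr5:149208900-149212305 and chr4:46401244-46404037, at means of 98.9 to 99.1. All 9 had RNAPII and the 3 marks in all 24 lists and Myc in all 5 fibroblast lists.

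The 5 lowest had means of 39.5 to 41.0 and varied more between lists. They were chr14:76185922-76188397, chr11:78278357-78280572, chr8:112215164-112218124, chr4:133180044-133183291 and chr7:19716163-19717699. The first of them had percentiles of 31.7 in the wild-type library, 7.74, 11.4 and 51.1 in the transgenic libraries and 60.1, 66.1 and 48.4 in the tumours.

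Regions with the largest widening had Myc over several kilobases in at least 2 tumours. In chr7:134163589-134170215 Myc covered 6104, 6105 and 3896 bp in the tumours, against 1172, 1081 and 1259 bp in transgenic spleen, and the ratio to transgenic spleen libraries 2 and 3 was 5.22. The next 4 were chr8:73028423-73037898 (4.93), chr14:15177649-15183248 (4.91), chr17:35367609-35373935 (4.39) and chr8:124470452-124475849 (4.04). All 5 had RNAPII and H3K4me3 in every spleen and tumour list. Transgenic spleen library 2 placed these 5 between percentiles 0.324 and 35.7, the lowest of the 7 lists for each of them.

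Of the 5 regions that shortened most, 4 lacked peaks of some antibodies, in some lists or in all. The smallest ratio, 0.532, was that of chr3:5859987-5861015, with 491, 664 and 487 bp in the tumours and 238, 1029 and 817 bp in transgenic spleen. It had no H3K4me1 or H3K27ac in any list, RNAPII in 1 tumour, and H3K4me3 in 1 wild-type spleen and 1 tumour list. chr2:90235051-90235830 (0.559) and chr16:57391051-57392353 (0.607) had no RNAPII or H3K27ac in spleen and no H3K4me3 in wild-type spleen. The former had H3K4me3 in 1 transgenic spleen and 2 tumour lists, H3K27ac in 2 tumours, and RNAPII and H3K4me1 in 1 tumour. The latter had RNAPII in 1 tumour and H3K4me1 in 1 wild-type spleen list. chr9:70794506-70796016 (0.661) had H3K4me1 in 6 of 7 and H3K27ac in all 5 lists but neither RNAPII nor H3K4me3, and chr6:47586018-47587608 (0.679) had all 4 throughout.

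The widest region, chr8:123258034-123285532, measured 27499 bp. Myc covered 212 bp of it in the wild-type library, 1224, 7441 and 11670 bp in the transgenic libraries and 21542, 19005 and 26724 bp in the tumours. It carried all 4 antibodies in every spleen and tumour list, but had no Myc peak in any of the 5 fibroblast lists and none of the 4 antibodies in fibroblasts at 0 h. The next widest were chr11:87557603-87575902, chr7:29155600-29172471, chr3:87940905-87957401 and chr10:80390633-80403891, of 18300 to 13259 bp, and each had Myc in at least 4 fibroblast lists. A total of 30 regions exceeded 10 kb.

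RNAPII and the histone marks were not used to choose the regions, and all were found there more often than at other Myc regions. RNAPII peaks lay in 81.6% of the regions in the wild-type list, 85.3% in the transgenic list and 90.2%, 94.1% and 92.2% in the tumours, against 21.0%, 20.6%, 25.2%, 32.8% and 33.8% of all 48649 merged regions. H3K4me3 lay in 91.5% and 92.1% of them in the wild-type lists, 89.95% and 90.8% in the transgenic lists and 93.3%, 94.7% and 93.0% in the tumours, against 29.8%, 33.4%, 29.1%, 30.5%, 35.4%, 37.5% and 37.4% of all merged regions. In both cases the lowest share among the 2618 regions was more than 2 times the highest share among all merged regions. For H3K4me1 the shares were 99.4% and 94.8% in the wild-type lists, 99.2% and 93.0% in the transgenic lists and 99.1%, 99.4% and 99.0% in the tumours, where all merged regions had 68.7%, 60.6%, 72.4%, 56.7%, 67.4%, 69.0% and 78.4%. H3K27ac lay in 99.0% in the wild-type list, 99.0% in the transgenic list and 98.5%, 98.9% and 98.6% in the tumours, against 58.9%, 51.8%, 50.4%, 55.3% and 65.6% of all merged regions. H3K27ac and H3K4me1 were frequent at all merged regions too, so the differences in points were smaller for them than for RNAPII and H3K4me3.

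The difference was tested within each library, as the share in the 2618 regions minus the share in the other 46031. It was 62.2 ± 2.29 points for H3K4me3 (SD, n = 7 libraries; 92.2% and 29.9%) and 31.8 ± 5.45 points for H3K4me1 (n = 7; 97.7% and 65.9%), positive in 7 of 7 libraries. Exact two-sided sign-flip permutation tests over the libraries gave p = 0.0156 for each, the smallest that 7 libraries permit, and 0.03125 after Benjamini-Hochberg adjustment over the 4 antibodies. RNAPII differed by 65.5 ± 3.00 points (n = 5; 88.7% and 23.2%) and H3K27ac by 44.8 ± 6.49 points (n = 5; 98.8% and 54.0%), positive in 5 of 5 libraries, with an exact permutation p = 0.0625, the smallest that 5 libraries permit and above the threshold of 0.05. Leaving out any 1 of the 7 libraries of H3K4me3 or H3K4me1 raised the adjusted exact permutation p to 0.0625, as 6 libraries permit no raw p below 0.03125. The libraries of an antibody share the same regions, and wide regions meet a peak more easily. In a window of 500 bp at the centre of each region the differences were 61.1 points for H3K4me3, 24.5 for H3K4me1, 59.3 for RNAPII and 45.0 for H3K27ac, and none turned sign. Against the 4171 regions bound in all 3 tumours and no spleen list, they were 40.8, 15.4, 51.1 and 23.3 points. Where a mark was present it was also wider than at the other regions, 1.37 times for H3K4me3 (wider in 7 of 7 libraries), 1.18 times for H3K4me1 (6 of 7), 1.34 times for RNAPII (5 of 5) and 1.29 times for H3K27ac (5 of 5). The exact sign-flip permutation p was 0.0625 for each after Benjamini-Hochberg adjustment, which misses the threshold. The width is that of the longest peak meeting the region, and wide regions can meet more peaks. Widths were not compared in windows of equal size, so the part of region size in them was not tested.

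**Figure D3:**
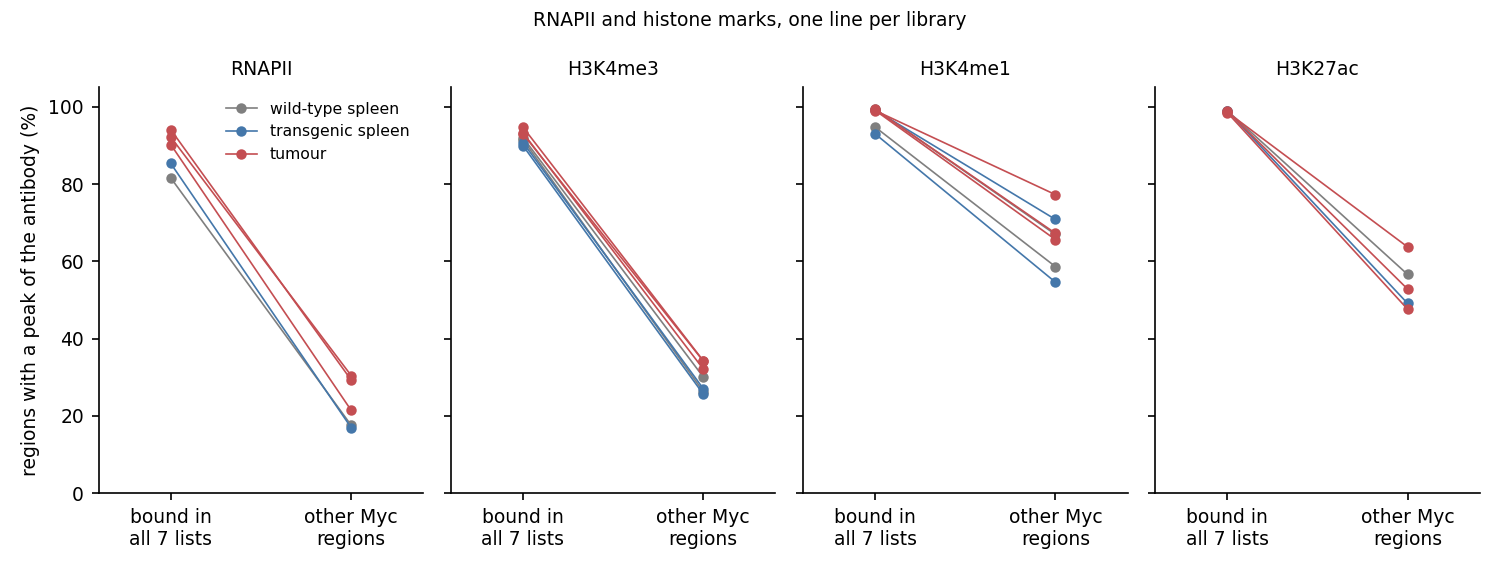
Share of regions with a peak of each antibody (%, vertical) in the 2618 regions bound in all 7 lists (left of each panel) and in the other 46031 Myc regions (right), with one line per library coloured by stage. Every line falls from left to right, by 61.7 to 68.8 points for RNAPII and by 21.8 to 38.4 points for H3K4me1.

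Most of the regions carried all 4 antibodies at once. In wild-type spleen 2097 of them (80.1%) had RNAPII and the 3 marks, in transgenic spleen 2178 (83.2%) and in tumours 2470 (94.3%), against 18.6%, 18.4% and 33.5% of all merged regions. The stage shares merge the libraries of a stage, of which tumours had more. Each of the 24 lists had a peak in 1835 regions (70.1%), against 13.0% of all merged regions. At the other end, 10 regions (0.382%) had none of the 4 antibodies in wild-type spleen, against 28.5% of all merged regions.

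Which mark was missing differed between antibodies. RNAPII was present in every list at 2016 regions (77.0%, against 15.9% of all merged regions) and in no list at 77 (2.94%, against 56.9%). H3K4me3 was present in every list at 2327 (88.9%, against 25.6%) and in none at 96 (3.67%, against 52.2%). H3K4me1 was in every list at 2369 (90.5%, against 43.7%) and in none at 11 (0.420%, against 9.25%), and H3K27ac in every list at 2551 (97.4%, against 36.1%) and in none at 13 (0.497%, against 18.0%).

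Gains and losses of marks between spleen and tumours were few. RNAPII peaks in all 3 tumours without any in spleen lay at 102 regions (3.90%, against 2.44% of all merged regions), and in both spleen lists and no tumour at 0 (against 0.101%). H3K4me3 was gained in that sense at 11 regions (0.420%, against 0.629%) and lost at 0 (against 0.0329%). H3K4me1 was gained at 0 (against 0.508%) and lost at 0 (against 0.0596%), and H3K27ac was gained at 1 region and lost at 1 (against 0.610% and 0.604%). Only for RNAPII did the share gained exceed that of all merged regions, and this difference was not tested. A gain needs a region without the mark in spleen. In wild-type spleen 99.4% of the regions already had H3K4me1, 99.0% H3K27ac, 92.9% H3K4me3 and 81.6% RNAPII. Of all merged regions, 70.1%, 58.9%, 33.9% and 21.0% had them. Few of the regions could thus gain a mark, so these shares do not show how readily marks were gained.

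The share of regions with RNAPII averaged 92.2% ± 1.93 in tumours (SD, n = 3) and 83.5% ± 2.65 in spleen (n = 2), with all tumours above both spleen libraries. The exact two-sided permutation p was 0.2, the smallest that 3 against 2 libraries permit. The share with H3K4me3 averaged 93.7% ± 0.925 in tumours (n = 3) and 91.1% ± 0.916 in spleen (n = 4), again without overlap of the libraries. Its exact permutation p was 0.0571, the smallest that 3 against 4 libraries permit, and 0.229 after adjustment over the 4 antibodies. H3K4me1 averaged 99.2% ± 0.188 in tumours (n = 3) and 96.6% ± 3.20 in spleen (n = 4; exact permutation p = 0.514), and H3K27ac 98.7% ± 0.196 in tumours (n = 3) and 99.0% in both spleen libraries (exact permutation p = 0.2). For H3K4me1, replicate 2 of each spleen genotype was lower than the rest, at 94.8% and 93.0%, and at the centre window at 76.7% and 61.0%, against 94.5% to 97.9% in the other 5 libraries.

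The widths of the marks at these regions gave no tumour-to-spleen difference that passed the test. H3K4me3 was 3318, 3131 and 3055 bp wide at the median region in tumours, against 2419 and 3274 bp in the wild-type libraries and 2605 and 2676 bp in the transgenic ones. Only wild-type library 2, whose whole list had the widest H3K4me3 peaks, reached the tumour range. The means were 3168 ± 135 bp in tumours (SD, n = 3) and 2743 ± 370 bp in spleen (n = 4), a log2 ratio of 0.22 (exact two-sided permutation p = 0.171, adjusted 0.686). RNAPII was 1053, 1961 and 2007 bp wide in tumours, against 1077 bp in wild-type and 803 bp in transgenic spleen, with tumour 1 inside the spleen range. Its means of 1674 ± 538 bp in tumours (n = 3) and 940 ± 194 bp in spleen (n = 2) gave a log2 ratio of 0.79 (exact permutation p = 0.4, adjusted 0.8).

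For H3K4me1 the widths were 3916, 4652 and 3988 bp in tumours, against 4256 and 3750 bp in the wild-type libraries and 4848 and 2802 bp in the transgenic ones. The tumours lay within the spleen range, and the log2 ratio was 0.12 (exact permutation p = 0.686, adjusted 0.8). H3K27ac was 2768, 3334 and 3221 bp wide in tumours, against 3412 bp in wild-type and 3024 bp in transgenic spleen, a log2 ratio of -0.05 (exact permutation p = 0.8, adjusted 0.8). With 3 against 4 or 3 against 2 libraries the smallest p is 0.0571 or 0.2, so no width could have passed 0.05.

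Divided by the median peak width of its own list, a scaling added after seeing the data, H3K4me3 was 1.52, 1.61 and 1.67 times as wide in tumours, against 1.31 and 1.31 in the wild-type libraries and 1.36 and 1.39 in the transgenic ones. The groups did not overlap on this scale (log2 ratio 0.25, exact permutation p = 0.0571, adjusted 0.229). H3K27ac was 1.61, 1.51 and 1.64 times as wide in tumours, against 1.48 in wild-type and 1.43 in transgenic spleen, so that its log2 ratio turned to 0.12 (exact permutation p = 0.2, adjusted 0.4). The log2 ratio of RNAPII fell to 0.12 (exact permutation p = 0.8) and that of H3K4me1 was 0.22 (exact permutation p = 0.514), with overlap of the groups for both.

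**Figure D4:**
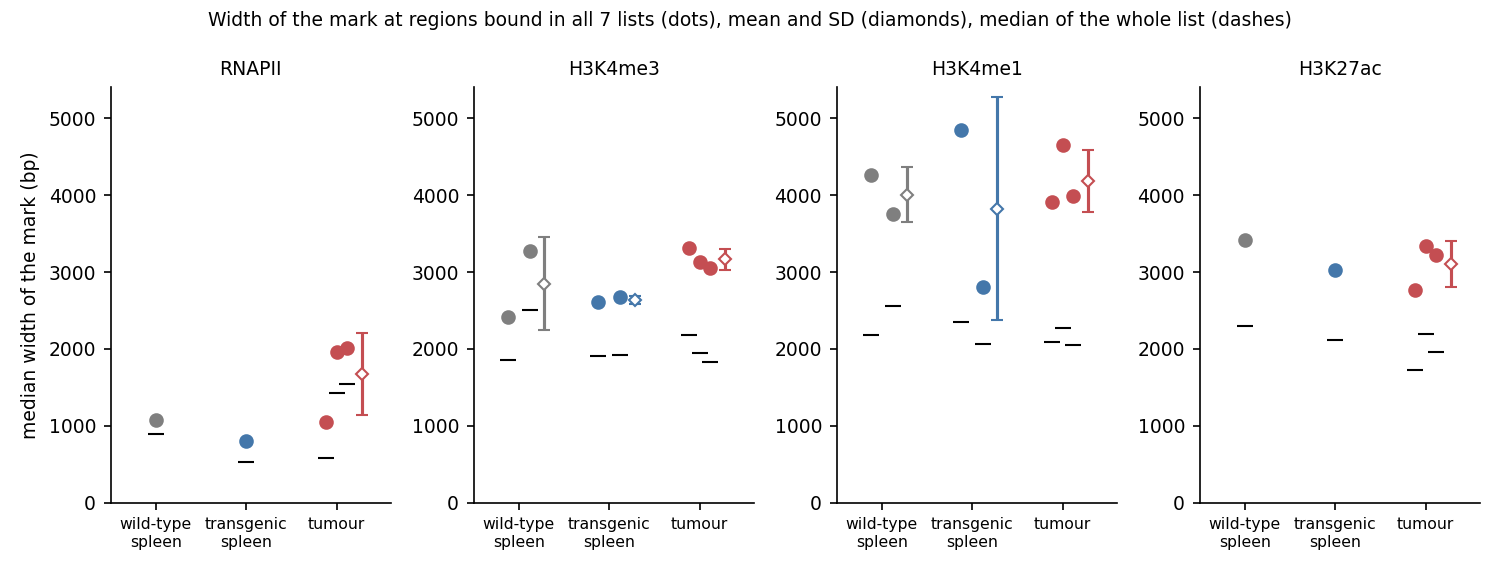
Median width of each mark at the 2618 regions (bp, vertical) per library (dots), with mean and SD for stages of 2 or more libraries (diamonds) and the median width of the whole list (black dashes). At each mark the range of the tumour dots overlaps that of the spleen dots, and every dot lies above the dash of its own list.

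Widening of Myc went with wider H3K4me3 and H3K27ac, in transgenic spleen as well as in tumours. In the quintile of regions with the largest widening of Myc (median ratio 2.09), H3K4me3 was 3716 bp wide in tumours (mean of 3 libraries, 3618 to 3905.5) and 2982 bp in transgenic spleen (2974 and 2990). In the quintile with the smallest (median ratio 1.03), it was 2638 bp in tumours (2528 to 2773) and 2362 bp in transgenic spleen (2302 and 2422). H3K27ac was 3867.5 and 2599 bp wide in tumours in those quintiles, and 3772.5 and 2695 bp in the 1 transgenic spleen library. RNAPII was 1885 bp (1026 to 2403) and 1523 bp (1036.5 to 1770.5) in tumours in those quintiles, and 772.5 and 833 bp in transgenic spleen. Neither transgenic spleen nor the tumour library with the narrowest RNAPII was wider in the upper quintile. Between the Myc length and the mark width of the same-numbered tumour, Spearman's rho across the regions with the mark was 0.62 to 0.65 for H3K4me3, 0.70 to 0.73 for H3K27ac, 0.47 to 0.51 for H3K4me1 and 0.37 to 0.59 for RNAPII. These describe 2362 to 2602 regions per pair, and the label's numbers do not state that the libraries come from 1 tumour. A longer Myc peak also makes for a longer merged region, over which the longest peak of the mark was taken. Region size was not held fixed in the quintiles or correlations, and its part in them was not tested.

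The 96 regions without H3K4me3 in any list, which lacked the promoter mark, were bound less broadly. Their median covered length was 1901, 1652 and 1824 bp in the tumours, against 2652, 2496 and 2473 bp for the 2327 regions with H3K4me3 in every list. In transgenic spleen libraries 2 and 3 it was 1328 and 1458 bp, against 1614 and 1909 bp. The median ratio of tumours to these libraries was 1.22, against 1.38. Nearly all of the 96 had marks of active chromatin: H3K4me1 lay in 94.8%, 93.8% and 94.8% of them in wild-type spleen, transgenic spleen and tumours, and H3K27ac in 89.6%, 90.6% and 92.7%. RNAPII lay in 12.5%, 8.33% and 62.5%, the tumour figure again from 3 lists.

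The highest of these 96 by mean percentile was chr10:59440238-59446019, at 97.8 ± 1.08. Myc covered 4173, 2154 and 4504 bp of it in the tumours, against 341, 1229 and 1686 bp in the transgenic libraries and 323 bp in the wild-type one. It had RNAPII, H3K4me1 and H3K27ac in every list. The next were chr1:108448471-108451374, chr4:118852686-118857399, chr1:88404542-88409395 and chr9:70794506-70796016, at 94.5 to 97.0. These 4 had H3K27ac in every list and no RNAPII in spleen, and RNAPII appeared in 2, 0, 3 and 0 tumours.

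Most of the regions were also bound by Myc in fibroblasts, a cell type of another lineage. A Myc peak lay in 60.2% of the 2618 regions in starved cells, in 68.0% after 1 h of serum and in 78.8% after 2 h, with exact 95% binomial intervals of 58.3 to 62.0, 66.1 to 69.7 and 77.2 to 80.4. Of all merged regions 8.19%, 11.3% and 18.6% had one. In the MycER cells 85.1% (83.7 to 86.5) had a Myc peak after 4 h of OHT and 81.4% (79.8 to 82.8) at 0 h, against 27.5% and 20.2% of all merged regions. The intervals cover counting error only, and with 1 library per condition no difference between conditions was tested. All 5 fibroblast lists had a peak in 1494 regions (57.1%, against 6.98% of all merged regions) and none had one in 383 (14.6%, against 71.5%). Set the other way, the 2618 regions held 28.1%, 23.2% and 13.7% of all fibroblast Myc peaks at 0, 1 and 2 h of serum, and 8.74% and 13.2% in MycER cells at 4 and 0 h.

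The share bound in fibroblasts went up with the number of spleen and tumour lists. In starved cells it was 1.18% for regions of 1 list, 9.21% for 4 lists, 18.2% for 5, 31.4% for 6 and 60.2% for all 7. In MycER cells at 4 h it was 9.22%, 48.6%, 64.7%, 73.8% and 85.1%. The median merged width rose with the same number, from 1036 bp for 1 list to 2993.5 bp for all 7. Wide regions meet a peak more easily, and the part of width in this gradient was not tested. Within the 2618 regions the sharing also went with rank: all 5 fibroblast lists had a peak in 36.3% of the quintile with the lowest mean percentile, then in 47.8%, 60.3%, 64.8% and 76.1% of the following quintiles.

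**Figure D5:**
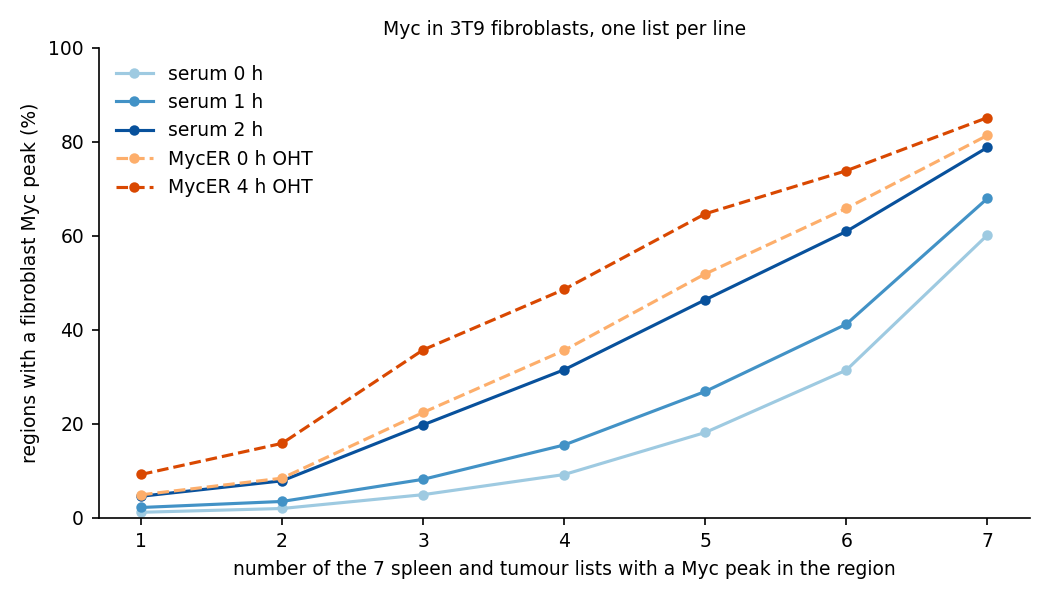
Share of merged regions with a Myc peak in each of the 5 fibroblast lists (%, vertical) against the number of the 7 spleen and tumour lists with a Myc peak in the region (horizontal). Every line climbs at each step, and regions of all 7 lists reach 60.2% in starved cells and 85.1% in MycER cells after 4 h. The median width of the merged regions also rises along the horizontal axis.

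Regions with H3K4me3 were shared more often, and among them those of all 7 lists more often than the others. Among regions with H3K4me3 in every Eµ-myc list, the 2327 bound in all 7 Myc lists had a Myc peak in starved fibroblasts in 66.95% of cases, against 18.6% of the 10119 other Myc regions. After 2 h of serum the shares were 86.8% and 49.7%, and in MycER cells at 4 h 92.6% and 72.0%. Among regions without H3K4me3 in any list, the 96 had a Myc peak in starved fibroblasts in 4.17% and in MycER cells at 4 h in 19.8%, against 1.15% and 9.57% of 25304 other regions.

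More of the regions were called with serum, in lists that also held more peaks. The serum lists held 5832 peaks at 0 h, 8105 at 1 h and 16384 at 2 h. The MycER lists held 18000 at 0 h and 27693 at 4 h. The part of list length in the calls was not tested. Myc was called at all 3 times in 1495 regions (57.1%, against 7.02% of all merged regions). It was absent at 0 h and called at 1 and 2 h in 275 (10.5%, against 3.90%), and called at 2 h alone in 219 (8.37%, against 6.79%). In 6 regions it was called at 0 h and not at 2 h (0.229%, against 0.277%, close to the share of all merged regions). In MycER cells 2128 regions were bound at both times (81.3%, against 19.9%), 101 at 4 h alone (3.86%, against 7.57%) and 2 at 0 h alone (0.0764%, against 0.288%).

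Fibroblast peaks were longer after serum and after OHT, at these regions and at others. Over the 1495 regions bound at all 3 times, the longest peak had a median of 1416 bp at 0 h, 1733 bp at 1 h and 1954 bp at 2 h. It was longer than at 0 h in 86.4% of them at 1 h and in 94.5% at 2 h, where all merged regions bound at each time had 84.3% and 92.6%. The median ratio of 2 h to 0 h was 1.32 in these regions and 1.32 in 1922 other regions. In MycER cells the medians over 2128 regions were 2392 bp at 4 h and 1747 bp at 0 h, longer in 93.0% (against 91.3% of all merged regions bound at both times), with a median ratio of 1.29, against 1.30 in 7571 other regions.

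The 383 regions without fibroblast Myc mostly lacked active marks in fibroblasts. In MycER cells at 0 h they had H3K4me3 in 6.27%, H3K27ac in 6.79%, RNAPII in 9.40% and H3K4me1 in 25.1%, and 262 of the 383 had none of the 4. The 1494 regions bound in all 5 fibroblast lists had them in 99.1%, 99.5%, 98.2% and 99.7%. In wild-type spleen the 383 had H3K4me1 in 99.0% and H3K27ac in 97.4%, close to the 99.8% and 99.7% of the 1494. H3K4me3 lay in 79.1% of them in tumours and 63.2% in wild-type spleen, against 99.9% and 99.4% of the 1494, and RNAPII in 88.5% and 54.6%, against 99.4% and 89.9%. The tumour shares merge 3 lists, and the wild-type shares 2 lists for H3K4me3 and 1 for RNAPII. The part of the number of lists in these shares was not tested. The median ratio of Myc length in tumours to transgenic spleen libraries 2 and 3 was 1.36 for the 383 and 1.35 for the 1494.

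By mean percentile the highest regions without fibroblast Myc were chr16:33750437-33752829 (98.5), chr1:21949723-21954339 (97.8), chr8:125806283-125808735 (97.25), chr1:108448471-108451374 (97.0) and chr4:118852686-118857399 (96.9). In chr16:33750437-33752829 Myc covered 2119, 2115 and 1967 bp in the tumours, against 483, 2247 and 2321 bp in the transgenic libraries and 461 bp in the wild-type one, a ratio of 0.926. Of the 5, 4 had none of the 4 antibodies in fibroblasts at 0 h, and chr8:125806283-125808735 had H3K4me1 alone. The 5 highest of the regions bound in all 5 fibroblast lists were the 5 highest of the 2618, given above, and apart from chr17:39979309-39986287 each had the 4 antibodies in fibroblasts too.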

How the data were processed

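Of the 60 ChIP-seq samples, inputs included, 40 peak lists deposited by the authors were used here: 7 Myc and 24 RNAPII or histone mark lists of the Eµ-myc model, and 5 Myc and 4 RNAPII or mark lists (0 h) of fibroblasts. The submitters' processing notes name BWA 0.6.2, SAMtools, MACS 1.4.1 and the mm9 build, and the settings are not given in the sources used here. Each deposited list holds the peaks of 1 library. The score deposited by the authors, from 80.01 to 3233.06 in the 7 Myc lists, is larger for peaks of smaller p-value in MACS. It served only to rank peaks within a list.

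Starts were converted to count from 1. Overlap by 1 bp counted as shared, and overlapping or touching Myc peaks were merged. Covered length is the number of bases of a region under the peaks of a library, the width of a mark is its longest overlapping peak, and a region with several peaks took the highest percentile. For single fibroblast lists, 95% binomial intervals (exact, Clopper-Pearson) are given. Read depth is not known from peak lists.

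Mark widths and shares were tested by exact two-sided permutation (tumour against all spleen libraries, by double the smaller tail) and by exact two-sided sign flips over libraries, with Benjamini-Hochberg adjustment over the 4 antibodies and a threshold of 0.05. The regions, lists and tests were chosen with earlier results of these data known. The named regions were the 10 highest and 5 lowest by mean percentile, the 5 with the largest and the 5 with the smallest ratio of tumour length to that of transgenic spleen libraries 2 and 3, the 5 widest, and the 5 highest without H3K4me3, without fibroblast Myc and with all 5 fibroblast lists. Alternatives were keeping peaks with at least the median score of a list, peaks set to 500 bp, chromosomes 1 to 19, other rules for overlap and merging, leaving out libraries, and replicate numbers as blocks. Mark widths relative to the list median and touching peaks kept apart were added after seeing the data. No annotation on mm9 was used here, so genes, cell type marker genes, motifs and sequences of the regions were not analysed here. Python 3.11.15, numpy 2.4.6, pandas 2.3.3, scipy 1.17.1 and matplotlib 3.10.9 were used. Overlaps and tests were run on simulated data with known answers, and overlaps were checked against bedtools 2.31.1 on 7 lists, with 0 differences.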

Additional observations from a re-analysis of the deposited data

How the results depend on the processing

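The number of regions bound in all 7 lists depended on the peaks admitted: 2618 as reported, 1255 after removing peaks under their list's median score, 1493 when every list was cut to as many top-scoring peaks as the shortest, 4571 without the 2 narrow-peak libraries and 1 where peaks had to cover at least 50% of the region in every list. It was 2153 to 2618 with 500-bp peaks, chromosomes 1 to 19, peaks within 500 bp merged or touching peaks kept apart, an alternative chosen after seeing the data. Leaving out 1 Myc library gave 2619 to 3865, the largest without transgenic spleen library 2 and the next, 3691, without wild-type spleen library 1.

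The ratio of Myc length in tumours to transgenic spleen, 2.17, kept its direction in each alternative run, at 1.42 without the 2 narrow-peak libraries, 2.07 with the score filter and 2.29 for the longest peak, and 1.45 to 2.76 leaving out 1 library. The fibroblast shares (serum 0, 1 and 2 h, then MycER 0 and 4 h; 60.2%, 68.0%, 78.8%, 81.4% and 85.1% as reported) were 45.2%, 53.1%, 64.6%, 67.1% and 71.7% without the narrow-peak libraries, 62.6%, 70.6%, 81.1%, 83.6% and 86.7% with 500-bp peaks, 54.0%, 62.6%, 72.7%, 75.6% and 81.1% in a 500-bp central window, and 31.0%, 47.1%, 60.3%, 61.4% and 76.5% where peaks covered at least 50% of the region. With the score filter, serum 0 and 1 h gave 55.9% and 65.5%. Leaving out 1 Myc library gave 51.5% to 60.2%, 59.9% to 68.0%, 71.3% to 78.8%, 73.7% to 81.3% and 78.0% to 86.4%, in the same order.

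The log2 width ratio of H3K27ac in tumours over spleen turned sign, from -0.05 to 0.0231 by bases covered, to 0.0345 against transgenic spleen alone and to 0.12 relative to the list's median width, an alternative added after seeing the data, and ranged from -0.139 to 0.0345 leaving out 1 library. That of H3K4me1 ranged from -0.0303 to 0.233. None of these passed its test. The shares of regions with a mark minus those of other regions kept their direction throughout: leaving out 1 library gave 52.0 to 65.0 points for H3K4me3 and 23.5 to 33.5 for H3K4me1, where the adjusted p reached 0.0625 in each of the 14 cases that left out 1 library of the mark, because fewer libraries remained. Beyond these, 82 values under other settings and 134 with 1 library left out kept their direction and their side of the threshold or stayed within the spread used. Mark widths, and the shares of RNAPII and H3K27ac, could not change side, as their smallest p lies above 0.05. For the Myc length ratio of 2.17 the spread was a log2 SD of 1.01, which counts large changes as alike. These counts are therefore no measure of stability. Of 37 named regions, 12 had no value with the score filter, 14 none with 500-bp peaks and 2 none without tumour 3. Where they had one under these filters the mean percentile was that of the same peaks, so it says nothing about stability. The causes of the other changes were not tested.

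With the replicate number as a block, the Myc length ratio was 2.17 by construction, since every block held 1 tumour and 1 transgenic spleen library. The log2 width ratios were 0.24 for H3K4me3 (exact permutation p = 0.5) and 0.15 for H3K4me1 (exact permutation p = 1). These were sign flips over blocks 1 and 2, which permit no p below 0.5. The numbers were not taken to pair the samples: deviations of same-numbered Myc libraries correlated at -0.06 to -0.01 and those of different numbers at -0.03 to 0.06. Same-numbered libraries ranged from -0.08 to 0.13 for H3K4me3 and from -0.05 to 0.47 for H3K4me1, where wild-type and transgenic spleen libraries of the same number deviated together (0.47, and 0.13 for H3K4me3). Read depth is unknown, so a region counted as unbound may lie below the detection of its list, above all in transgenic spleen library 2 with 5246 peaks. Widths of peaks 233 to 261 bp long reflect the list, and 1 library per fibroblast condition gives no replicate error.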

Other observations

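The sets in these paragraphs were picked after their values were seen, and no difference was tested. The 13 regions without H3K27ac in any list had a median width of 1310 bp, and Myc was longer in tumours than in transgenic spleen libraries 2 and 3 in 2 of them, with a median ratio of 0.778. The 10 regions with no antibody in wild-type spleen had a median width of 1279.5 bp and a median ratio of 0.780. Over all 2618 regions the median ratio was 1.37. Of the 13 regions, 10 had a Myc peak in at least 1 fibroblast list. The share without one was 23.1%, against 14.6% of the 2618 and 71.5% of all merged regions.

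The 102 regions with RNAPII in all 3 tumours and in no spleen list had H3K4me3 in every list at 71 (69.6%) and in none at 8, where 97.6% of the 2016 regions where all 5 RNAPII lists had a peak and 88.9% of all 2618 had it in every list. Their median ratio of Myc length was 1.45, against 1.38 for the 2016. All 5 fibroblast lists had Myc in 43.1% of the 102, against 64.8% of the 2016.

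The regions were spread over the genome, and chromosome 11 held the most, 256 of its 4057 merged Myc regions (6.31%). Among the assembled chromosomes, 8 had the largest share of its merged regions, 7.06%, and X the smallest, 29 of 1013 (2.86%). The median gap between neighbours was 244 kb, and 123 of 2596 gaps were under 10 kb. The densest megabase, from 80 to 81 Mb of chromosome 10, held 18 of the regions among 121 merged Myc regions, and that from 73 to 74 Mb of chromosome 8 held 15 among 74.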
